A study of Mus musculus with 6 samples.

Results

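The calcineurin, RCAN and NFATc genes were examined in quadriceps muscle of male AR97Q mice. They comprised the calcineurin subunit genes Ppp3ca, Ppp3cb and Ppp3r1, the regulator genes Rcan1, Rcan2 and Rcan3, and the transcription factor genes Nfatc1, Nfatc2, Nfatc3 and Nfatc4. The 10 genes were chosen by name, and their probes were found through the transcript identifiers of the array, which gave 18 probes, of which 17 were kept. All 10 were among the 25005 genes and transcripts tested, of 44931 on the array. AR97Q mice are transgenic animals on a C57BL/6J background that model spinal and bulbar muscular atrophy (SBMA), a disease of motor neurons and muscle. The 3 mice of the Exercise group ran in a forced wheel at 5 m/min for 60 min per day, 5 days per week, from 5 to 9 weeks of age, and tissue was collected on the day after the last run. The 3 mice of the Sedentary group did not train. Since all 6 mice carried the transgene and no array of wild-type muscle was analysed here, the values compare training states within the disease model and say nothing of the disease itself. Each mouse gave 1 single-colour Agilent array, on which the signal of a spot is a brightness on a linear scale.

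Calcineurin is a calcium-dependent protein phosphatase. Its catalytic subunit, made from Ppp3ca or Ppp3cb in muscle, binds a regulatory subunit made from Ppp3r1 and is switched on by calcium and calmodulin when a motor nerve drives the fibre. Active calcineurin removes phosphate from NFATc proteins, which then enter the nucleus and favour slow and oxidative fibre genes, and kinases return them to the cytoplasm. RCAN proteins bind calcineurin and restrain it, and a shorter Rcan1 transcript is itself a known NFAT target. Much of this pathway is set by phosphorylation and by location in the cell, which RNA levels do not measure.

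Between 54.6 and 59.9% of probes were well above background on an array, and 0 spots were saturated. The array's 75th percentile of signal was 251 to 257 in Exercise and 310 to 384 in Sedentary muscle, so values are given on a scaled log2 scale, the log2 signal minus the log2 of that percentile. This choice matters, because the median of all genes tested lay at 0.03 (log2, Exercise minus Sedentary) under the 75th percentile, at 0.11 under the array median, at -0.13 in the deposited table of values, at -0.45 without scaling and at -0.52 with spike-in probes. Calls over all genes were 2868 higher and 1530 lower under the 75th percentile, 2680 and 875 under the array median, 6169 and 2012 with normexp background correction, 1172 and 3201 in the deposited table, 617 and 11280 without scaling, and 333 and 10490 with spike-in probes. The arrays lay on 1 slide in 2 strips. The strip with all 3 Exercise arrays held Sedentary 1 also, and Sedentary 2 and Sedentary 3 lay on the other. The 6 skeletal muscle fibre markers were all detected and all called higher in Exercise muscle, with a summed level, in units of the 75th percentile, of 2926 to 3331 against 1249 to 1934. Their sign held under every scaling tried. Myh4 lost its call with the deposited table (limma adjusted p 0.0568), quantile normalization (0.124), no scaling (0.0759) and spike-in probes (0.190). Acta1 lost its call with spike-in probes (0.0954). Of the 6 lymphocyte markers, Cd3g, Cd8a and Cd79a were not kept, and the summed levels of endothelial markers (19.6 to 26.0 against 20.8 to 23.6) and macrophage markers (54.8 to 60.05 against 52.0 to 58.7) overlapped between the groups. In bulk muscle, more of a cell type and more RNA per cell cannot be told apart.

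Of the 10 genes, Ppp3cb and Rcan2 were higher in Exercise muscle in the limma test (adjusted p under 0.05 after correction over the whole array), and 0 were lower. By adjusted p, 11.5% of all genes were called higher and 6.12% lower, so 2 of 10 was close to the background. At an unadjusted limma p under 0.05 the counts were the same, 2 and 0. Such p-values were common, since Ppp3r1, at an unadjusted limma p of 0.0546, ranked only 9559 among all 25005 genes. The share of all genes under 0.05 was not counted, for this or for the later unadjusted counts. None reached the absolute log2 fold change of 1 that the study's methods also ask for, against 1.72% of all genes higher and 1.06% lower by that rule. In 2 of the 10 genes the Exercise and Sedentary arrays did not overlap, against 43.2% of all genes. The median difference of the 10 genes was 0.09 on the log2 scale, beside 0.03 for all genes, and the differences ran from -0.15 for Rcan3 to 0.58 for Ppp3cb.

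**Figure D1:**
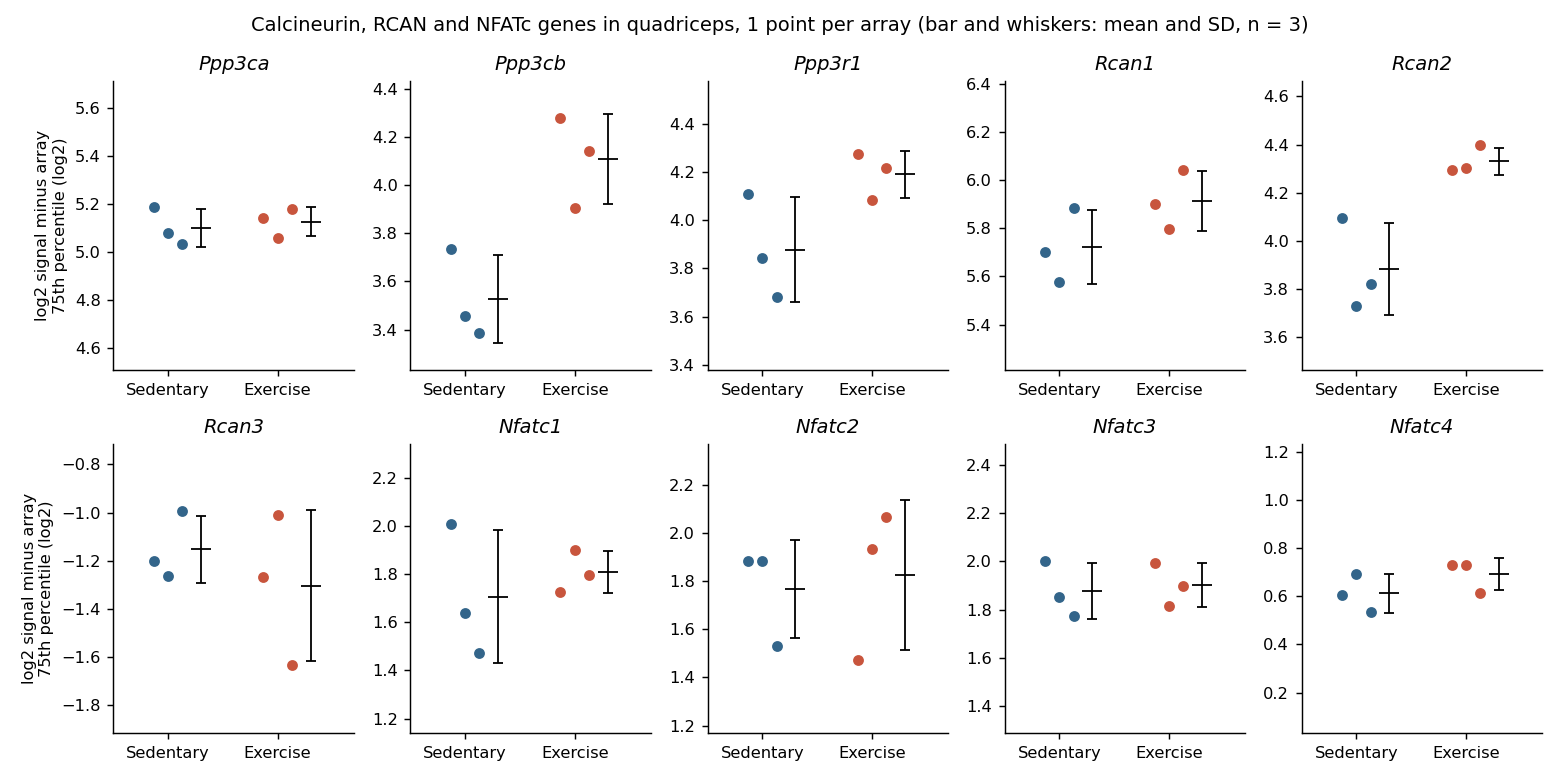
Scaled log2 signal (log2 of the signal minus the array's 75th percentile) of each calcineurin, RCAN and NFATc gene, with 1 point per array and the mean and SD of 3 arrays beside it; every panel spans the same height. The Exercise arrays lie above all Sedentary arrays for Ppp3cb and Rcan2 on this scale and overlap them for the other 8 genes; without scaling or with spike-in probes the mean of Rcan2 was slightly lower in Exercise.

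Among the calcineurin subunits, Ppp3cb, which encodes the beta catalytic subunit, had scaled log2 signals of 4.28, 3.91 and 4.14 in Exercise 1 to 3. In Sedentary 1 to 3 they were 3.74, 3.46 and 3.39. Every Exercise array was above every Sedentary array, with a gap smaller than the SD of either group. The mean was 4.11 ± 0.19 (SD, n = 3) in Exercise and 3.53 ± 0.18 (SD, n = 3) in Sedentary muscle. The difference was 0.58 (SE 0.14, 95% interval 0.24 to 0.93) on the log2 scale, a fold of 1.495, with a limma adjusted p of 0.0413.

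Ppp3ca, which encodes the alpha catalytic subunit, had scaled log2 signals of 5.14, 5.06 and 5.18 in Exercise and 5.19, 5.08 and 5.03 in Sedentary muscle. The groups overlapped fully. The difference was 0.03 (95% interval -0.18 to 0.24, adjusted p 0.841), and a change of the size seen for Ppp3cb lay outside that interval. Ppp3r1, which encodes the regulatory subunit calcineurin B, had 4.27, 4.08 and 4.22 in Exercise and 4.11, 3.84 and 3.68 in Sedentary muscle. Here Sedentary 1 reached into the range of the Exercise arrays. The difference of 0.31 (95% interval -0.01 to 0.63) did not pass the test (adjusted p 0.143). A second, dimmer Ppp3r1 probe gave -0.28, -0.15 and -0.20 in Exercise and -0.33, -0.51 and -0.72 in Sedentary muscle, a difference of the same size, 0.31, without overlap and with an adjusted p of 0.126 over all probes.

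The calcineurin subunits were next compared with each other on the same array, which removes any single factor that scales an array. The level of such a difference depends on the probes and has no meaning of its own, and its change between groups does. Ppp3cb minus Ppp3ca was -0.86, -1.15 and -1.04 (log2) in Exercise and -1.45, -1.62 and -1.65 in Sedentary muscle. All Exercise values were above all Sedentary values, and the shift was 0.55. Ppp3r1 minus Ppp3ca was -0.87, -0.98 and -0.96 in Exercise and -1.08, -1.24 and -1.35 in Sedentary muscle, a shift of 0.29, again without overlap. The exact two-sided permutation test gave p = 0.1 for each, the smallest it allows with 3 arrays per group, and 0.5 after Benjamini-Hochberg adjustment over the 10 pairs compared. The other 8 pairs, which set Rcan2 and Rcan3 against Rcan1 and the NFATc genes against each other, overlapped between the groups, with shifts from -0.34 to 0.26. These pairs were added after seeing the data, and how often other gene pairs of the array do not overlap was not counted.

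**Figure D2:**
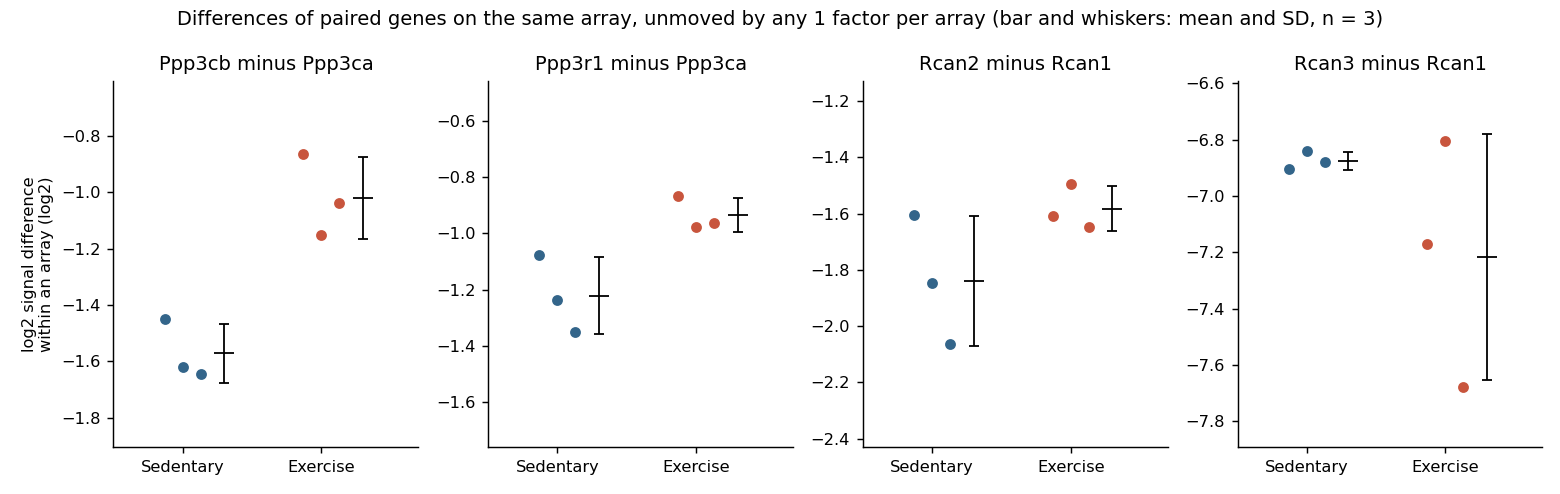
Log2 signal of 1 gene minus that of another on the same array, with 1 point per array and the mean and SD of 3 arrays; every panel spans the same height. Ppp3cb minus Ppp3ca and Ppp3r1 minus Ppp3ca lie higher on all 3 Exercise arrays, by 0.55 and 0.29 on average, whereas Rcan2 minus Rcan1 and Rcan3 minus Rcan1 overlap.

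Among the regulators, Rcan2, a calcineurin inhibitor of muscle and brain, had scaled log2 signals of 4.29, 4.30 and 4.40 in Exercise and 4.10, 3.73 and 3.82 in Sedentary muscle. The Exercise arrays lay close together and above the highest Sedentary array, Sedentary 1. The mean was 4.33 ± 0.06 (SD, n = 3) against 3.88 ± 0.19 (SD, n = 3). The difference was 0.45 (SE 0.12, 95% interval 0.16 to 0.73), a fold of 1.36 with a limma adjusted p of 0.0482, and it turned to -0.024 without scaling and to -0.093 with spike-in probes.

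The other Rcan2 probes gave like differences. The middle probe had 3.34, 3.37 and 3.26 in Exercise and 3.07, 2.82 and 2.89 in Sedentary muscle, a difference of 0.40. The dimmest had 0.73, 0.69 and 0.73 in Exercise and 0.46, 0.13 and 0.14 in Sedentary muscle, a difference of 0.47. None of the 3 probes, which measure 1 gene on the same arrays, overlapped between the groups, as was so for 43.2% of all genes. In the limma fit over all probes, in which 16.2% were called in either direction, the adjusted p was 0.0441 and 0.0425 for these probes and 0.0502 for the brightest.

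Rcan1, the regulator with the NFAT-responsive transcript, had 5.90, 5.80 and 6.04 in Exercise and 5.70, 5.58 and 5.89 in Sedentary muscle. The groups overlapped through Sedentary 3. The difference of 0.19 (95% interval -0.09 to 0.48) did not pass the test (adjusted p 0.281). It rested on 1 probe, so transcripts from the different starts of the gene could not be told apart. Rcan3 had -1.27, -1.01 and -1.63 in Exercise and -1.20, -1.26 and -0.995 in Sedentary muscle, a difference of -0.15 with full overlap (adjusted p 0.561). Its dimmer probe lay at -4.17, -4.00 and -4.22 in Exercise and -3.70, -3.80 and -3.62 in Sedentary muscle. On that probe all Exercise arrays were lower, by 0.42 on average, and the adjusted p over all probes was 0.0409, but with normexp background correction the difference was 0.057 in the other direction. The within-array difference of the Rcan3 probes overlapped between the groups (exact permutation p = 0.2, adjusted 0.7 over the 7 probe pairs).

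**Figure D3:**
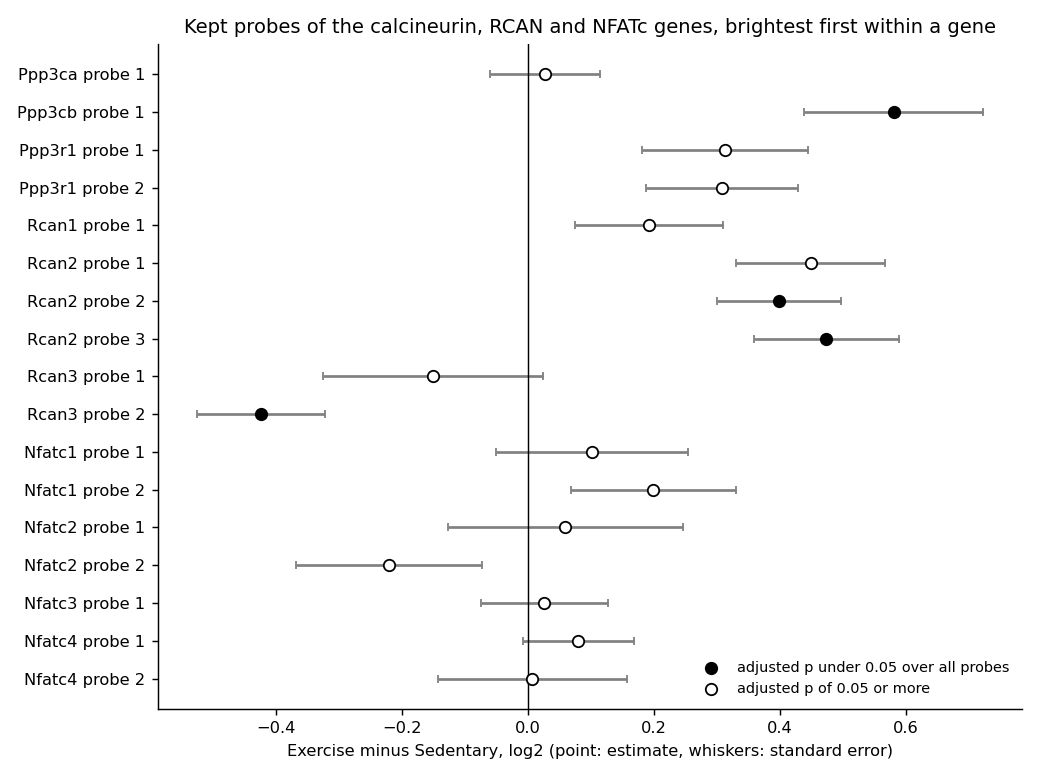
Exercise minus Sedentary difference (log2, 75th percentile scaling) of the 17 kept probes with standard errors; filled points passed the limma test over all probes. The 3 Rcan2 probes lie between 0.40 and 0.47 and the Ppp3r1 probes both at 0.31, while the probes of Rcan3 differ in size and those of Nfatc2 in sign; without scaling or with spike-in probes most of these differences turn negative.

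Promoter windows of the called genes and of Rcan1 are shown because the NFAT binding core, GGAAA on one strand and TTTCC on the other, is the sequence through which this pathway reaches its targets. RefSeq (GRCm38.p6) promoter windows were found for 8 of the 10 genes, 13 windows in all, and the 250 bases before each start were searched on both strands. Matches are in capitals, and each sequence runs 5′ to 3′ on the strand of its gene.
Rcan1, internal start, chr16:92400079-92400328, minus strand: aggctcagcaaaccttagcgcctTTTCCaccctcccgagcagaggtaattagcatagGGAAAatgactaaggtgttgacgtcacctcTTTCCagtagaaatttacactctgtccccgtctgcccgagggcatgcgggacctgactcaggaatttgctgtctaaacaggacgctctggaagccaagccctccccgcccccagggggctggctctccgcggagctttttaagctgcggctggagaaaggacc
Rcan1, upstream start, chr16:92466170-92466419, minus strand: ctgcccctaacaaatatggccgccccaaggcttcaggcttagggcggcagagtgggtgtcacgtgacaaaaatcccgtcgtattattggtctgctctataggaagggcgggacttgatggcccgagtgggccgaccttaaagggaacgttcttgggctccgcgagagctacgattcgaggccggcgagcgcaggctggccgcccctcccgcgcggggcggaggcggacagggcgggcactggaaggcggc
Ppp3cb, chr14:20546574-20546823, minus strand: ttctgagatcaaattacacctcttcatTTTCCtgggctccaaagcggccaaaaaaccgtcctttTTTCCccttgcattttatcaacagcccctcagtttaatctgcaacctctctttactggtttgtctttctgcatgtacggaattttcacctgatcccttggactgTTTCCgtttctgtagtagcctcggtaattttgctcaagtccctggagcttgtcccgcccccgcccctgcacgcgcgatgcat
Rcan2, first start, chr17:43801102-43801351, plus strand: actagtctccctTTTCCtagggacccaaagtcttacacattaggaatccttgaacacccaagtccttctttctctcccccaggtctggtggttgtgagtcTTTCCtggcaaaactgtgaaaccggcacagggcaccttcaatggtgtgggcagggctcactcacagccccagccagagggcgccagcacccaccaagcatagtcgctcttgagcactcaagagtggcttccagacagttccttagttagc

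The window at the internal Rcan1 start held 3 matches and the window at the upstream start held 0. The Ppp3cb window held 3 and the window of the first Rcan2 start 2, while those of the other Rcan2 starts held 0. Of all 32851 windows, 55.6% held at least 1 match, 21.4% at least 2 and 6.39% at least 3. The Ppp3r1 window held 0, and among the NFATc genes, Nfatc4 and the more upstream Nfatc2 start held 3 each. A short core of this kind is frequent by its length, and a match describes letters and not binding.

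The NFATc genes, whose proteins carry the calcineurin signal to the nucleus, lay between -0.23 and 0.12 (both Nfatc1) relative to the median of all genes over the 15 settings fitted on all arrays. Nfatc1 had scaled log2 signals of 1.73, 1.90 and 1.80 in Exercise and 2.01, 1.64 and 1.47 in Sedentary muscle, where Sedentary 1 was the highest of all 6. Its difference was 0.10 (adjusted p 0.660), and that of a second probe 0.20 (adjusted p 0.320). Nfatc2 spread widely within both groups, with 1.47, 1.93 and 2.07 in Exercise and 1.88, 1.88 and 1.53 in Sedentary muscle. Its difference was 0.06 (95% interval -0.40 to 0.51, adjusted p 0.841), and a dim second probe gave -0.22 (adjusted p 0.324). Nfatc3 lay between 1.82 and 1.99 in Exercise and between 1.77 and 2.00 in Sedentary muscle, a difference of 0.03 (95% interval -0.22 to 0.27, adjusted p 0.871). A second Nfatc3 probe, never well above background, was not used. Nfatc4 had 0.73, 0.73 and 0.61 in Exercise and 0.61, 0.69 and 0.54 in Sedentary muscle, a difference of 0.08 (95% interval -0.13 to 0.29, adjusted p 0.540), and its second probe gave 0.01. All 4 genes overlapped between the groups, and their intervals span 0 on both sides.

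The calls of Ppp3cb and Rcan2 depended on the arrays and the scaling. Leaving out Exercise 1, Exercise 2, Exercise 3, Sedentary 2 or Sedentary 3 ended both calls, with adjusted p between 0.0642 and 0.135 for Ppp3cb and between 0.102 and 0.149 for Rcan2, while without Sedentary 1 both held (0.0277 and 0.0180) and Ppp3r1 passed as well (0.43, adjusted p 0.0469). Each of those 5 omissions also left 0 of all genes called higher and at most 1 lower, so the loss was not particular to these genes. Within the strip that holds both groups, 3 Exercise arrays against Sedentary 1, the differences were 0.37 for Ppp3cb and 0.24 for Rcan2. With a single Sedentary array there, 0 of all genes were called, so the missing calls of Ppp3cb and Rcan2 (adjusted p 0.401 and 0.413) carry no information. The deposited table of values also ended both calls, at 0.42 (adjusted p 0.0948) and 0.29 (adjusted p 0.155), as did quantile normalization (0.42 and 0.27, adjusted p 0.0784 and 0.137). Ppp3cb stayed positive under every scaling tried, down to 0.11 without scaling and 0.039 with spike-in probes. Taken relative to the median of all genes over the 15 settings fitted on all arrays, Ppp3cb lay between 0.34 and 0.64, Rcan2 between 0.20 and 0.52 and Ppp3r1 between 0.050 and 0.34, with the lowest values when the strip was a block, whereas Ppp3ca lay between -0.16 and 0.03 and Rcan3 between -0.45 and -0.08. The muscle fibre marker sum moved with both called genes, and its part in these differences was not tested.

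**Figure D4:**
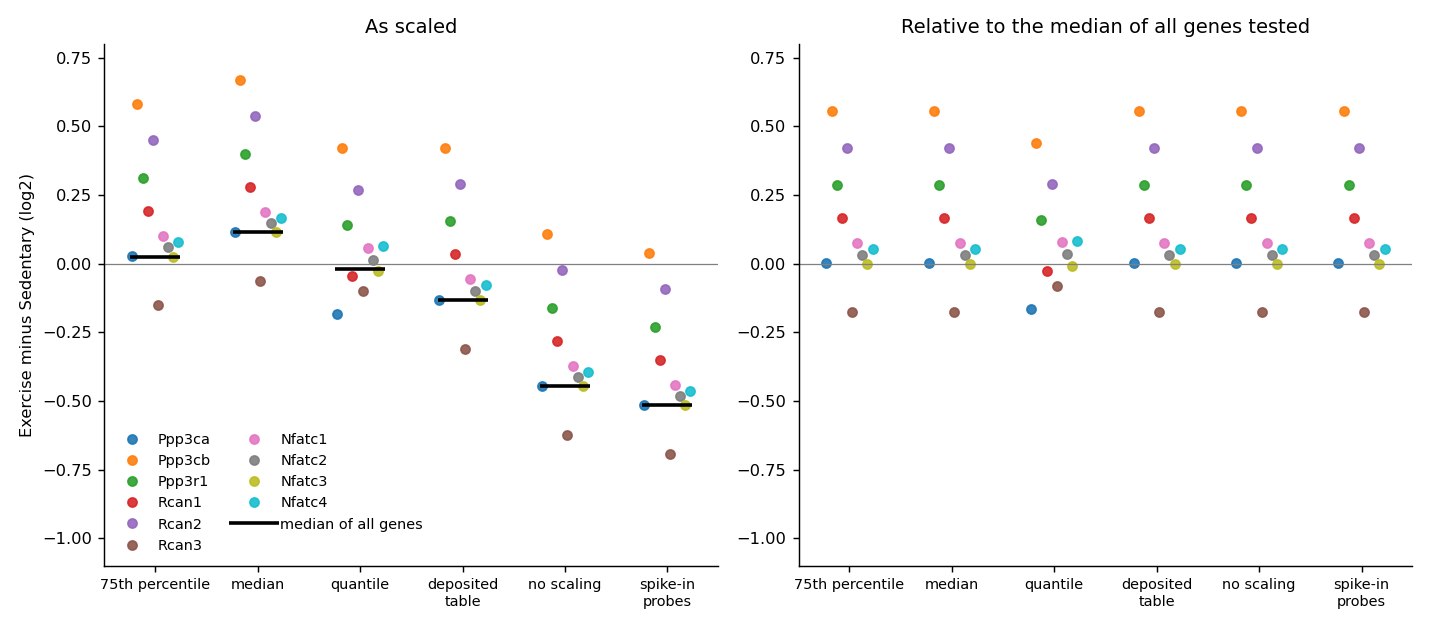
Exercise minus Sedentary difference (log2) of each gene under 6 ways of scaling the arrays, as scaled (left, bars mark the median of all genes tested) and relative to that median (right). The median runs from 0.11 to -0.52 on the left, where only Ppp3cb stays above 0 throughout and Rcan2 falls to -0.024 and -0.093 without scaling and with spike-in probes; on the right all columns but quantile are equal by construction, since they differ by 1 factor per array, and in the quantile column Ppp3cb, Rcan2 and Ppp3r1 keep their order.

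The named genes whose scaled log2 signal followed Ppp3cb most closely over the 6 arrays were Fkbp4, an immunophilin (Pearson r 0.999), Lhx3, a LIM homeodomain factor (0.998), Mrpl38, a mitochondrial ribosomal protein (0.998), Prps1l3 (0.996) and Styx, a pseudophosphatase (0.995). With 6 arrays and 15747 named genes, values this near 1 are found by search alone, and no test was made. Their own differences were between 0.40 and 0.85 (log2).

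The genes around calcineurin and NFAT were read from lists of their roles. An unadjusted limma p under 0.05 was common over all genes, where a p of 0.0546 ranked 9559 of 25005. The share of all genes under 0.05 was not counted. The remaining family members were few: Ppp3cc, the gamma catalytic subunit, differed by 0.32 (adjusted p 0.0600; -0.15 without scaling), and Nfat5, the calcium-independent NFAT relative, by -0.20 (adjusted p 0.168; -0.67 and 0.0168 without scaling), so 0 of 2 were called by limma, with 1 past an unadjusted p under 0.05. Over their kept probes, Ppp3cc ran from 0.13 to 0.32 and Nfat5 from -0.46 to -0.20. Ppp3r2 was on the array but no array gave it a signal well above background.

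Of 10 calcineurin binding partners, 4 were called higher and 0 lower, with a median of 0.02. Of all genes, 11.5% were called higher and 6.12% lower. Myoz1, a Z-disc protein of fast fibres that binds calcineurin, had 8.05, 7.98 and 8.05 in Exercise and 7.13, 6.46 and 6.21 in Sedentary muscle. The groups were far apart, and the difference of 1.43 (SE 0.23, adjusted p 0.0237) kept its sign and its call under every scaling tried. Myoz3, also of fast fibres, rose by 1.04 (SE 0.28, adjusted p 0.0499), a call lost with the deposited table (adjusted p 0.0632), with quantile normalization (0.0518), without scaling (0.57, adjusted p 0.0725) and with spike-in probes (0.50, adjusted p 0.0735). The anchoring protein gene Akap5 rose by 0.86 (SE 0.21, adjusted p 0.0411), a call lost with the deposited table (adjusted p 0.0551), without scaling (0.39, adjusted p 0.184) and with spike-in probes (0.32, adjusted p 0.310). Fkbp1a, which encodes the immunophilin that carries FK506 to calcineurin and also sits on the ryanodine receptor, rose by 0.44 (SE 0.09, adjusted p 0.0314) but was at -0.033 without scaling and -0.10 with spike-in probes, and its call was lost with the deposited table (adjusted p 0.0798) and quantile normalization (0.241). Myoz2, the relative found in slow fibres and heart, was at -0.45 and did not pass the test (adjusted p 0.329).

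Upstream of calcineurin, 4 of 11 calmodulin and calcium entry genes were called higher and 0 lower, and the median was 0.37. The shares over all genes were 11.5% higher and 6.12% lower. The counts were 7 and 1 at an unadjusted limma p under 0.05, which was common over all genes (a p of 0.0546 ranked 9559 of 25005). Ryr1, the calcium release channel of the sarcoplasmic reticulum, had 5.37, 5.27 and 5.55 in Exercise and 4.88, 4.50 and 4.56 in Sedentary muscle, a difference of 0.75 (SE 0.14, adjusted p 0.0253). Cacna1s, the voltage sensor that opens it, rose by 0.70 (SE 0.13, adjusted p 0.0264) and the calmodulin gene Calm3 by 0.60 (SE 0.12, adjusted p 0.0295). These 3 genes stayed positive under every scaling, but without scaling they were at 0.28, 0.22 and 0.13 and with spike-in probes at 0.21, 0.15 and 0.057, and none passed there. Calm3 also lost its call with the deposited table (adjusted p 0.0596) and quantile normalization (0.0575), as Cacna1s did with the latter (0.0846). Calm2 rose by 0.37 (SE 0.09, adjusted p 0.0435) and turned to -0.10 without scaling and -0.17 with spike-in probes, and it did not pass with the deposited table (adjusted p 0.189) or quantile normalization (0.369). The list median also turned, to -0.10 without scaling and -0.17 with spike-in probes, where all genes moved to -0.45 and -0.52.

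Of 10 NFAT kinase and retention factor genes tested, 1 was called higher and 0 lower, with a median of 0.27. That count was close to the background of 11.5% of all genes higher and 6.12% lower. The counts were 7 and 0 at an unadjusted limma p under 0.05, which was common over all genes (a p of 0.0546 ranked 9559 of 25005). Dyrk2, an NFAT kinase, had 0.96, 0.69 and 0.69 in Exercise and 0.16, -0.10 and -0.10 in Sedentary muscle, a difference of 0.79 (SE 0.12, adjusted p 0.0234). It stayed positive under every scaling, but it fell short of the threshold without scaling (0.32, adjusted p 0.0751) and with spike-in probes (0.25, adjusted p 0.295). Gsk3a was at 0.35 (adjusted p 0.0530), Csnk1a1 at 0.24 (adjusted p 0.0841) and Csnk1e at 0.26 (adjusted p 0.0938), and these were negative without scaling and with spike-in probes. The long noncoding RNA Nron was never well above background.

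Of 9 other calcineurin substrates, 0 were called in either direction by limma, against 11.5% of all genes higher and 6.12% lower. At an unadjusted limma p under 0.05, 3 were higher and 2 lower, and such p-values were common over all genes. The muscle transcription factor genes Mef2d and Mef2c were at 0.34 (adjusted p 0.0624) and 0.30 (adjusted p 0.121), and both were negative without scaling. The 3 kept Mef2d probes ran from 0.14 to 0.34. Dnm1l, the mitochondrial fission GTPase, was at -0.28 (adjusted p 0.0710), and Crtc1, a CREB coactivator, at -0.26 (adjusted p 0.0879). Both passed as lower in the deposited table (-0.44, adjusted p 0.0379, and -0.42, adjusted p 0.0315) and without scaling (-0.76 and -0.73), and Dnm1l passed with quantile normalization also (-0.46, adjusted p 0.0367).

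The slow and oxidative fibre genes, the class that NFAT favours, did not move one way: of 12, 2 were called higher and 2 lower, with a median of -0.32. Beside them, 11.5% of all genes were called higher and 6.12% lower. At an unadjusted limma p under 0.05, common over all genes, 2 were higher and 4 lower, and by sign alone 5 were higher and 7 lower. Mb (myoglobin) had 8.07, 8.22 and 8.44 in Exercise and 7.34, 6.76 and 7.04 in Sedentary muscle, a difference of 1.20 (SE 0.18, adjusted p 0.0234). Myl3, the slow ventricular light chain, rose by 0.97 (SE 0.16, adjusted p 0.0239). In the other direction, Tnni1 (slow troponin I) had 2.45, 2.96 and 3.64 in Exercise and 4.40, 4.56 and 4.45 in Sedentary muscle, and fell by 1.45 on the log2 scale (SE 0.29, adjusted p 0.0277). Atp2a2, the slow-fibre calcium pump, fell by 0.79 (SE 0.19, adjusted p 0.0381) on its brightest probe, and its 3 kept probes ran from -0.79 to -0.29. All 4 kept their sign under every scaling tried, and Mb, Tnni1 and Atp2a2 their calls. Myl3 lost its call with quantile normalization (0.58, adjusted p 0.0568) and spike-in probes (0.43, adjusted p 0.0820). The slow myosin gene Myh7 was at -0.35 with a wide spread (SE 0.85, adjusted p 0.792). As for the 10 genes themselves, leaving out any array but Sedentary 1 left 0 genes of these 6 lists called.

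**Figure D5:**
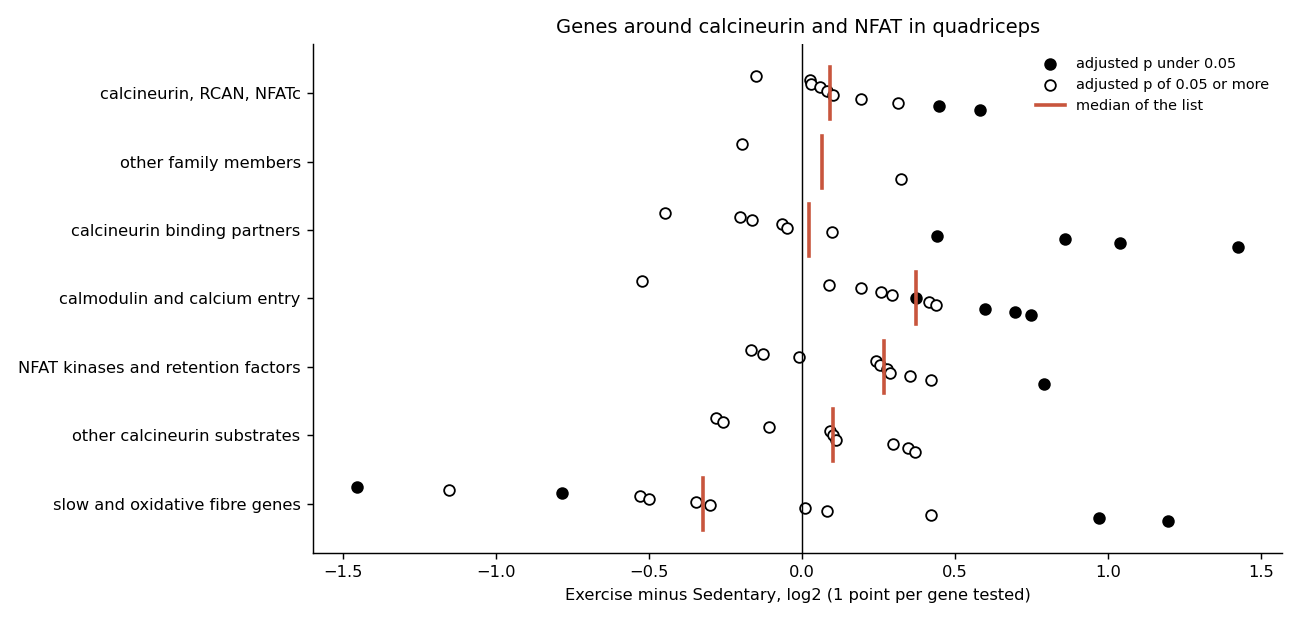
Exercise minus Sedentary difference (log2, 75th percentile scaling) of each gene tested in the calcineurin, RCAN and NFATc genes and in 6 lists of related genes, filled where the limma adjusted p was under 0.05, with the median of each list as a bar. The median is 0.37 for calmodulin and calcium entry and 0.27 for NFAT kinases and retention factors, and both turn negative without scaling and with spike-in probes; the slow and oxidative fibre genes run from -1.45 to 1.20.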

How the data were processed

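RNA from the quadriceps of 6 male mice aged 9 weeks was measured on Agilent SurePrint arrays with 1 dye. The scanner files deposited by the authors hold the processed signal, a linear intensity made by Feature Extraction 12.1.0.3 with background subtracted, and the deposited table of values holds that intensity times 1 factor per array, between 1.33 and 1.88. From these, log2 of the processed signal was taken without control spots and outlier flags, spots of a probe were averaged, and the array's 75th percentile was subtracted. A probe had to be well above background on 3 or more arrays (32726 were), the brightest was used for each gene, and accessions were named through RefSeq (GRCm38.p6, names only; the array design names mm9). Exercise was set against Sedentary with the two-sided moderated test of limma (version 3.58.1, R 4.3.3), without covariates, and p-values were adjusted by Benjamini-Hochberg over the 25005 genes or over every kept probe. The number of arrays limits the precision, and each array was 1 mouse.

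The genes, the lists and their tests were chosen with earlier results of these data known. All 10 genes were named with every probe, and of each list the 4 genes with the lowest adjusted p. Myoz2 and Myh7 were named after their values were seen. Scaling with 7 spike-in probes and the within-array pairs were added after seeing the data. Normexp used an offset of 50.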

Additional observations from a re-analysis of the deposited data

How the results depend on the processing

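The limma fit called 2 of the 10 genes higher and 0 lower. With normexp, no filter on dim probes, a filter that needs every array, averaged probes, the probe with the largest SD, or trend and robust estimation 2 were called higher, with array weights 3, with the array median 1, and 0 with the deposited table, quantile normalization, no scaling, spike-in probes, the strip as a block, the strip that holds both groups or a log2 fold change of at least 1. At an unadjusted p under 0.05, 1 was higher with the deposited table, 2 with quantile normalization and 0 with no scaling, spike-in probes or either use of the strip. Called lower were 5 without scaling, 2 with spike-in probes and 1, the dim Rcan3 probe, with the probe of largest SD. Beside these, 11280, 10490 and 1401 of all 25005 genes were called lower. Leaving out each array in turn gave 0 to 3 called higher (all 3 only without Sedentary 1) and 0 lower, and 2 or 3 higher at an unadjusted p under 0.05. Over all genes it gave 0 to 3476 higher and 0 to 2060 lower, against 2868 and 1530. Array weights gave 5124 and 3627, normexp 6169 and 2012, no filter 9741 and 1918, quantile normalization 1865 and 1363. Averaged probes gave 2711 and 1489, the probe with the largest SD 2536 and 1401, trend and robust estimation 3721 and 1988. The filter that needs every array gave 3348 and 1737. The strip as a block gave 0 and 3, so the loss of calls there was not particular to the 10 genes.

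Same-numbered arrays did not deviate together (r 0.02, 0.08 and 0.04), and with the replicate block, a paired fit, 0 of the 10 genes and 0 of all genes were called by limma, 2 of the 10 at an unadjusted p under 0.05 (Ppp3cb adjusted p 0.0620, Rcan2 0.0930).

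Signs turned as follows (log2). Without scaling, Ppp3ca was at -0.45, Ppp3r1 -0.16 (second probe -0.17), Rcan1 -0.28, Rcan2 -0.024 (middle probe -0.075), Nfatc1 -0.37 (second probe -0.27), Nfatc2 -0.41, Nfatc3 -0.45 and Nfatc4 -0.39 (second probe -0.47). With spike-in probes, Ppp3ca was at -0.51, both Ppp3r1 probes at -0.23, Rcan1 -0.35, Rcan2 -0.093 (other probes -0.069 and -0.14), Nfatc1 -0.44 (second probe -0.34), Nfatc2 -0.48, Nfatc3 -0.52 and Nfatc4 -0.46 (second probe -0.54). These settings shift all genes alike, by their construction. In the deposited table Ppp3ca was at -0.13, Nfatc1 -0.057, Nfatc2 -0.099, Nfatc3 -0.13 and Nfatc4 -0.078 (second probe -0.15). That table also shifts all genes alike, since it holds the processed signal times 1 factor per array. Quantile normalization gave Ppp3ca -0.18, Rcan1 -0.046 and Nfatc3 -0.027. Normexp gave Ppp3ca -0.043, Nfatc2 -0.018 (second probe 0.10), Nfatc3 -0.034 and the dim Rcan3 probe 0.057. The strip as a block and the strip that holds both groups each gave Ppp3ca -0.061, Nfatc1 -0.20, Nfatc2 -0.058 and Nfatc3 -0.0996. Nfatc2 was at -0.045 with array weights (second Nfatc4 probe -0.13) and -0.081 with the mean of its probes. Leaving out 1 array gave Ppp3ca -0.0060 to 0.071, Nfatc1 -0.016 to 0.25, Nfatc2 -0.062 to 0.23, Nfatc3 -0.025 to 0.089, the second Nfatc4 probe -0.088 to 0.13 and Rcan3 -0.30 to 0.013. For settings other than no scaling, spike-in probes and the deposited table the cause was not tested. The 3 arrays per group limit the precision of every value.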
